A study of Mus musculus with 6 samples.

Results

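The cytosolic ribosomal protein genes were taken as every row of the count table whose symbol is Rpl or Rps followed by a number, with at most one added letter a, x, y or l and further digits, together with Rplp0, Rplp1, Rplp2 and Rpsa. This rule found 89 of the 24498 genes in the table, 53 of the large and 36 of the small ribosomal subunit. It used symbols and no measured value. Among the genes it leaves out are Fau, Rack1 and Rpl36al, which encode ribosomal proteins or a core ribosome-bound protein under other names, and it takes in paralogs whose names add an l.

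The cells were sorted prostate epithelial cells of male mice, 7 to 13 weeks old, from a pair of lineage-marking crosses. The Nkx groups carry the CreER(T2) driver of their name and the reporter Gt(ROSA)26Sortm1(EYFP)Cos from a B6.129X1 line, so that the cells the driver marks carry EYFP. The Clu group carries Clu-CreER(T2) and the reporter Gt(ROSA)26Sortm14(CAG-tdTomato)Hze from a B6.Cg line, so that cells using the clusterin gene Clu carry tdTomato. The 3 groups were Nkx cells of intact mice, Nkx cells of mice castrated at 8 weeks and harvested 4 weeks later, and Clu cells of intact mice, with 2 libraries each, called here Nkx intact 1 and 2, castrate 1 and 2, and Clu 1 and 2. Marker-positive cells were collected by fluorescence-activated sorting, and 2 ng of total RNA went into each stranded total RNA library. Whether a group's 2 libraries are from different mice is not in the labels. The p-values therefore measure only how far these libraries spread, and that spread may be technical. The Clu and Nkx groups also differ in Cre driver, reporter allele and the strain name of the reporter line. The marked population and the mouse line cannot be told apart.

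A ribosome is assembled from ribosomal RNA and one copy of nearly every ribosomal protein, in a large subunit that forms peptide bonds and a small subunit that reads the messenger RNA. The genes of both subunits are among the most abundantly transcribed in any cell, and their messenger RNAs start with a run of pyrimidines, the terminal oligopyrimidine (TOP) tract, through which growth signals acting on the kinase mTORC1 control their translation. Prostate luminal cells are secretory and depend on androgen, which castration withdraws.

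Total counts ran from 10220118 to 17412874 per library, with the castrate pair deepest. Levels are given as CPM, counts scaled to a common library size with edgeR's TMM factors, which ranged from 0.945 to 1.04. The androgen-dependent secretory gene Pbsn fell from 5393 and 6937 CPM in Nkx intact to 106 and 112 in the castrate libraries (edgeR's quasi-likelihood test), and Clu was at 1808 and 1934 CPM in the Clu libraries against 245 to 844 elsewhere. Summed CPM of markers of other cell types was uneven. Of 15 stromal markers the sum was 2683 in castrate 1 and 676 to 1185 in the other libraries. Of 12 endothelial markers it was 62.1 and 99.1 in Nkx intact, 545 and 79.0 in castrate 1 and 2, and 1227 and 503 in Clu 1 and 2. Of 18 leukocyte markers it was 253 in castrate 1 and 33.9 to 164 elsewhere, and no marker on the lists was at 0 in all libraries. The share of even counts was 66.9% to 78.7% among genes of 10 to 100 counts and 50.1% to 53.7% among genes of 1000 counts or more, so the mates of a read pair may have been counted apart and counting error is then larger than the counts alone give.

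Runs of pyrimidines, as a TOP tract has, lie near the annotated start sites of some members. RefSeq's promoter table, on build GRCm38.p6, held 64 of the 89 members, and the count table was made on GRCm39, so the sequences name the genes' starts and no reads were placed on them. A run of 8 or more C or T on the gene's strand was sought within 20 bases on either side of the start. It was found in 31 of the 64 members (48.4%) and in 18.4% of the 27025 genes in the promoter table. The run did not have to begin at the start, so it is not shown to be a TOP tract. The letters CCGGAAG, searched on both strands of the 300-base promoter, were found in 26 members (40.6%) and in 9.93% of all genes. TATAAA, searched on the gene's strand before the start, was found in 3 members (4.69%) and in 8.94% of all genes. The windows printed here run from 10 bases before the start, 5′ to 3′ on the gene's strand, with the longest run of C and T in capitals. They were chosen as examples of long and short runs among genes called in a comparison described further on; Rpl34 has a pair of annotated starts. They lie at chr3:130730318-130730347 (minus strand, the second start of Rpl34), chr3:130730379-130730408 (minus strand, the first start of Rpl34), chr17:33955646-33955675 (minus strand, Rps18), chr7:109519185-109519214 (plus strand, Rpl27a), chr2:39005112-39005141 (minus strand, Rpl35), chr14:24490668-24490697 (plus strand, the first start of Rps24), chr9:120127756-120127785 (plus strand, Rpsa) and chr17:33824543-33824572 (minus strand, Rps28).
Rpl34 second start: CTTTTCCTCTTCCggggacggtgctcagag
Rpl34 first start: tccctgacgtaCTTCCTgtccggcgccgtc
Rps18: cacttccgCTCTCTCTTCCacaggaggcct
Rpl27a: cgtgagCTCCTCCCTTTTCCCTTTCTgcca
Rpl35: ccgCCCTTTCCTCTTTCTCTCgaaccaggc
Rps24: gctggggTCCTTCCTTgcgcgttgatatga
Rpsa: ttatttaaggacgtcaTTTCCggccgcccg
Rps28: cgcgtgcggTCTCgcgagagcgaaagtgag
The capitals span 20 bases in Rpl27a, 18 in Rpl35, 13 at the second start of Rpl34, 11 in Rps18 and 9 in Rps24, against 6 at the first start of Rpl34, 5 in Rpsa and 4 in Rps28. Of other genes called lower in Clu than in castrate, the run was 4, 4 and 7 bases at the 3 starts of Rps19, 3 in Rps15, 4 in Rps16 and 7 at the second start of Rps24. All genes whose runs are given here were called in that comparison, so they cannot show whether the run bears on it. Rpl29, Rpl21 and Rplp1, which the results below turn on, were not among the genes matched.

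Together the members held 4.52% and 4.51% of each library's counts in the Nkx intact pair, 4.77% and 6.55% in castrate 1 and 2, and 3.75% and 4.03% in Clu 1 and 2. Their levels added up to 45563 and 45497 CPM for the Nkx intact pair, 46650 and 69319 CPM in the castrate libraries, and 36103 and 39911 CPM in Clu. As group means the sum was 45530 ± 46.6 CPM (SD, n = 2) in Nkx intact, 57985 ± 16030 in castrate and 38007 ± 2693 in Clu. Castrate 2 stood above every other library, castrate 1 lay next to the Nkx intact pair, and both Clu libraries lay below the other 4. In bulk samples, fewer cells of a type and less RNA per cell cannot be told apart. Leaving ribosomal RNA and mitochondrial genes out of the total kept this order, at 5.08% and 5.09%, 5.32% and 7.40%, and 4.24% and 4.58%. Rn18s, the small subunit's ribosomal RNA, which the library kit is made to deplete, stood at 5.34% and 5.21% of the library in Nkx intact, 3.86% and 4.25% in castrate, and 2.25% and 2.91% in Clu.

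The 2 subunits had the same order of libraries at their top and bottom. Large-subunit genes added up to 28199 and 28414 CPM for the Nkx intact pair, 28621 and 42950 in castrate, and 22482 and 25005 in Clu. Small-subunit genes summed to 17364 and 17083, 18029 and 26369, and 13621 and 14907 CPM in the same order. The ratio of the large to the small sum stayed between 1.59 and 1.68 in the 6 libraries.

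**Figure D1:**
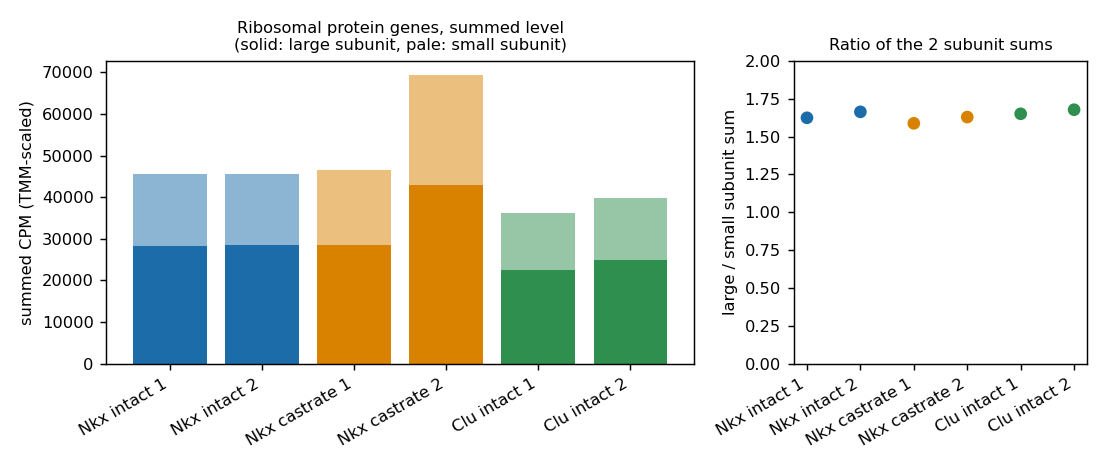
Summed CPM (TMM-scaled) of the ribosomal protein genes in each library, with the large subunit solid and the small subunit pale, and the ratio of the large-subunit to the small-subunit sum in each library. Castrate 2 reaches 69319 CPM and Clu 1 is lowest at 36103 CPM, while the ratio stays between 1.59 and 1.68.

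Of the 89 members, 85 passed the filter on low counts that left 13846 genes, 50 of the large and 35 of the small subunit. The other 4 were the paralogs Rpl10l, Rpl39l and Rps12l1, with a count of 0 in all 6 libraries, and Rpl3l, with 12 and 0 counts in Nkx intact, 4 and 0 in castrate and 0 in both Clu libraries. Mean levels of the tested members over all libraries ran from 1.17 to 1807 CPM with a median of 486 CPM, and 10 members were at 1000 CPM or more. Per kilobase of exon, Rplp1 was the most abundant at 3274 CPM per kb. Rplp1 is one of the acidic proteins of the large subunit's stalk, which recruits translation factors. Rpl26 and Rpl36 followed in the large subunit, at 1353 and 1336 CPM per kb. In the small subunit Rps18 and Rps23 were among the highest, at 1446 and 1282 CPM per kb.

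A few genes of the core ribosome were counted at almost nothing. Rpl24 was at 0.09 to 2.37 CPM, Rps10 at 1.13 to 4.55 CPM and Rpl13a at 8.27 to 20.8 CPM in the 6 libraries. Rpl32l, Rps3a2 and Rps3a3, whose names mark copies of other members, were also under 10 CPM on average. Ribosomal protein genes have many processed copies in the genome, and the table held 322 rows named as their pseudogenes, which summed to 354 to 1021 CPM. Of these rows 1 is named after Rpl48, which is not a member. How the submitters counted reads that match several genes is not given in the sources used here. In GENCODE M21 transcripts, a median of 34.5% of the 50-base windows of a member also occurred in a transcript of another gene, over 83 members and a range of 0% to 85.5%, with over 50% in 22 members. The share was 81.7% in Rpl24, 25.4% in Rps10 and 41.1% in Rpl13a. Across the 80 tested members with both values, Spearman's rho between this share and the level per kilobase was 0.46. It is a description across genes, which share libraries and are not independent. The part of counting in the low levels of these genes was not tested.

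**Figure D2:**
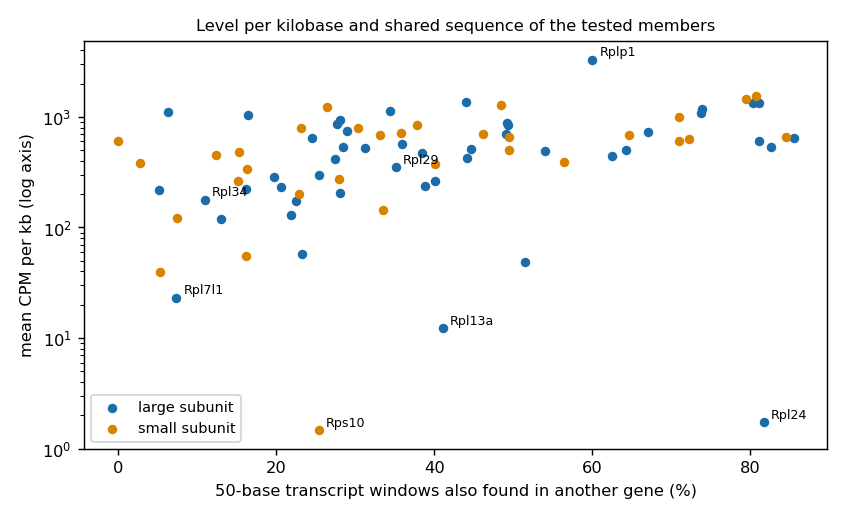
Each point is a tested ribosomal protein gene, with the percent of its 50-base transcript windows that also occur in another gene on the horizontal axis and its mean CPM per kb over the 6 libraries on a logarithmic vertical axis. Rpl24 and Rps10, at 81.7% and 25.4% of windows shared, lie far below the other members, Rpl13a, at 41.1%, is next lowest, and Rplp1 is highest.

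The comparison of castrate with Nkx intact asks what removal of androgen changed in cells of the Nkx groups. Most ribosomal protein genes were somewhat higher in the castrate mean, but the rise came from 1 of the 2 libraries and none passed the test. The fold change was above 0 for 78 of the 85 members, with a median of 0.32 on the log2 scale (0.31 for the large and 0.32 for the small subunit), against 0.05 over all genes tested. With edgeR's quasi-likelihood test at an adjusted p of 0.05, 0 members were called higher and 0 lower, where 4.02% of all genes tested were called higher and 4.59% lower. At an unadjusted p of 0.05, 6 members were higher and 0 lower (background 11.9% and 11.6%), DESeq2 called 2 higher and 0 lower (973 and 950 of its 14883 genes), and limma-voom called none in either direction. The 6 were Rpl4, Rpl9, Rpl17, Rps19, Rps24 and Rpsa.

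The castrate libraries disagreed with each other. Castrate 2 was above castrate 1 in 78 of 85 members, with a median ratio of 1.47, where the second library was 1.002 times the first in Nkx intact and 1.122 times in Clu. Castrate 2 was above both Nkx intact libraries in 76 members. Castrate 1 was above both in 40, below both in 30 and between them in 15. Both castrate libraries lay above both Nkx intact libraries in 39 members and below in 3, Rpl22l1, Rpl29 and Rpl34 (over all genes, 25.4% and 24.6%). Without castrate 1, edgeR called 51 members higher and 3 lower (1089 and 1323 of all 14326 genes then tested) and the median was 0.56; without castrate 2 it called none in either direction and the median was 0.02. Castrate 1 was also the library with the most stromal and leukocyte marker RNA, and the part of those cells in the difference was not tested.

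Rpsa, a small-subunit protein also known as the laminin receptor, was the 1 member above the family at an unadjusted p of 0.05 in this comparison, on the family-relative scale described further on. It was at 1472 and 1468 CPM in Nkx intact, 1919 and 2970 in castrate, and 1324 and 1367 in Clu. Both castrate libraries were above all others, and the log2 fold change of castrate against Nkx intact was 0.73, or 0.41 relative to the family (edgeR's adjusted p = 0.16). Rpl4, at 1403 and 1491, 1731 and 2469, and 1165 and 1282 CPM in the same order, had the same arrangement.

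The comparison of Clu with Nkx intact sets the population marked by clusterin beside the Nkx population in intact mice. Ribosomal protein genes were mostly lower in Clu cells, by a median of 0.31 on the log2 scale, which is 1.24-fold, and 4 members passed the test. The fold change was below 0 in 79 of 85 members, with medians of -0.32 for the large and -0.27 for the small subunit, against -0.01 over all genes tested. With edgeR's quasi-likelihood test, Rpl29, Rpl34, Rpl21 and Rps28 were called lower and no member higher, where 5% of all genes were called lower and 6.29% higher; 1 member was higher and 11 lower at an unadjusted p of 0.05 (13.7% and 12.6% of all genes), and DESeq2 called 7 lower (1092 of its 14883 genes). Both Clu libraries lay below both Nkx intact libraries in 64 members and above in 4 (31.3% and 31.9% over all genes). The 4 above were Rpl7, Rpl15, Rplp1 and Rps4l. The lower calls were 21 without castrate 1 (1561 of 14326 genes) and 19 without castrate 2 (1525 of 14847 genes). The castrate libraries enter this comparison through the shared spread, the filter on low counts, the scaling factors and the adjustment over the genes tested. Without any one of the Nkx intact or Clu libraries fewer members were called lower, and fewer of all genes too. Over the leave-one-out fits the median of the members ran from -0.36 to -0.21.

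The comparison of Clu with castrate shares both groups with the ones above, and the 3 are not independent of each other. It gave the most member calls: 18 genes were lower in Clu, 10 of the large and 8 of the small subunit, by 1.57-fold to 10.9-fold, and 1, Rps4l, was higher (edgeR's quasi-likelihood test; 8.1% of all genes were called lower and 8.82% higher). The median was -0.63 (-0.66 for the large, -0.61 for the small subunit, -0.003 over all genes tested), and 82 of 85 members had a fold change below 0. Both Clu libraries lay below both castrate libraries in 68 members and above in 1, against 30% and 31.5% over all genes. At an unadjusted p of 0.05, 56 members were lower and 1 higher (16.4% and 16.1%). The count of lower members fell to 3 without Nkx intact 1 (735 of 14966 genes) and to 4 without Nkx intact 2 (739 of 14943). It also fell without either Clu library, as did the lower calls over all genes. Without castrate 1 it rose, as did those calls. Without castrate 2 it was nearly the same, while the lower calls over all genes rose. The median was -0.84 without castrate 1 and -0.31 without castrate 2.

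**Figure D3:**
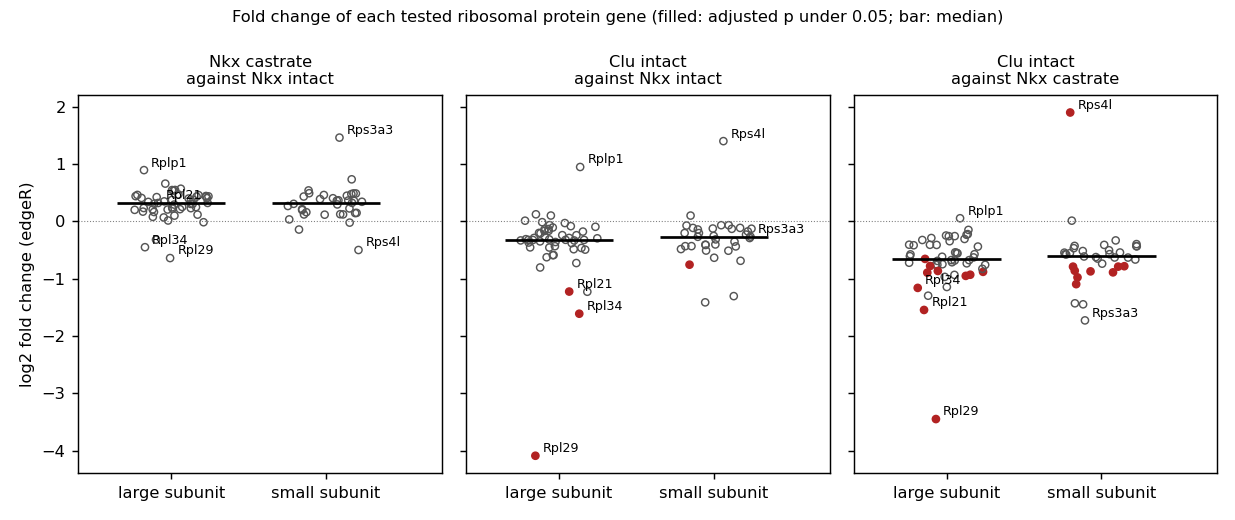
Log2 fold change (edgeR) of each of the 85 tested ribosomal protein genes in each comparison, large and small subunit apart; filled points had an adjusted p under 0.05 and bars are medians. The medians of the 2 subunits lie side by side in each panel, at 0.31 and 0.32, -0.32 and -0.27, and -0.66 and -0.61, and Rpl29 lies far below the rest in both Clu panels.

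Rps19, a small-subunit protein mutated in Diamond-Blackfan anaemia, was at 501 and 475 CPM in Nkx intact, 597 and 822 in castrate and 330 and 391 in Clu. The groups did not overlap, and the log2 fold change of Clu against castrate was -0.98 ± 0.21 (SE; edgeR's adjusted p = 0.0167). Rpl5, which with Rpl11 binds the p53 regulator Mdm2 when assembly fails, was at 911 and 912, 988 and 1522, and 613 and 738 CPM in the same order. Its log2 fold change was -0.89 ± 0.24 (edgeR's adjusted p = 0.038). Here too castrate 1 lay nearer to Nkx intact than to castrate 2.

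Rps18 of the small subunit was at 798 and 811 CPM in Nkx intact, 843 and 1371 in castrate, and 560 and 476 in Clu, a log2 fold change of -1.10 ± 0.25 against castrate (edgeR's adjusted p = 0.0212). Rpl27a was at 675 and 692, 741 and 948, and 414 and 472 CPM (-0.93 ± 0.19, edgeR's adjusted p = 0.0143). In both genes the Clu libraries were lowest and castrate 2 highest. Rpl17 differed by -0.88 on the log2 scale. The calls of Rps18, Rps19, Rpl5 and Rpl17 were each lost in 4 of the 6 leave-one-out fits and that of Rpl27a in 3. Also called lower were Rpl4, Rpl35, Rpl36, Rps15, Rps16, Rps24, Rps28 and Rpsa.

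To ask which members left the family, libraries were rescaled so that the median member of at least 10 CPM was equal in all 6, after which a log2 difference is the change of a gene relative to the other ribosomal protein genes. Of the 80 members that set this scale, 76 stayed within 0.5 of the family in castrate against Nkx intact, 75 in Clu against Nkx intact and 73 in Clu against castrate. The members furthest from it were Rpl29, Rpl34, Rpl21, Rplp1 and Rps4l.

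Rpl29, a large-subunit protein also known to bind heparin at the cell surface, departed most. It was at 689 and 700 CPM in Nkx intact, 603 and 289 in castrate, and 36.9 and 44.8 in Clu. The Clu libraries were far below all others and castrate 2 lay between, at less than castrate 1 although it was the library in which the family was highest. Clu was 17.02-fold lower than Nkx intact, a log2 fold change of -4.09 ± 0.36 (SE; edgeR's adjusted p = 0.000749), and 10.9-fold lower than castrate, at -3.45 ± 0.35 (edgeR's adjusted p = 0.000909). Without castrate 1 and 2 in turn the latter was -2.82 and -3.87. Relative to the family the differences were -3.81 ± 0.50 (edgeR's adjusted p = 0.0075) and -2.99 ± 0.48 (edgeR's adjusted p = 0.00675), where 1.56% and 2.51% of all genes were called lower on that scale. In Clu against Nkx intact edgeR called 0 members higher than the family, against 7.03% of all genes. At an unadjusted p of 0.05 it was 4 members, against 2795 of 13846 genes, and with DESeq2 it was 1, against 1820 of 14498. The first of these was not called without either Nkx intact or either Clu library, with edgeR's adjusted p from 0.0524 to 0.0775 and the size between -3.87 and -3.75. The 3 rows named as Rpl29 pseudogenes were at 0 to 0.17 CPM in every library.

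Rpl34 of the large subunit had a similar arrangement over the libraries. It was at 475 and 516 CPM in Nkx intact, 428 and 297 in castrate, and 166 and 158 in Clu. Clu was lowest and castrate 2 again lay between castrate 1 and Clu. The log2 fold change was -1.61 ± 0.21 against Nkx intact (edgeR's adjusted p = 0.00366), which was called in every leave-one-out fit, and -1.16 ± 0.21 against castrate (edgeR's adjusted p = 0.00904), which was not called without Clu 1 or Clu 2 (adjusted p of 0.0648 and 0.0983) and was -0.87 and -1.39 without castrate 1 and 2. Relative to the family it was -1.32 ± 0.33 and -0.65 ± 0.33, with edgeR's adjusted p of 0.0576 and 0.189. The second was -0.02 without castrate 1 and -1.08 without castrate 2 (edgeR's adjusted p = 0.922 and 0.00367). The 2 rows named as Rpl34 pseudogenes were at 4.30 and 5.73 CPM in Nkx intact, 2.97 and 22.6 in castrate, and 18.7 and 16.7 in Clu. They were highest in castrate 2 and Clu, where Rpl34 was lowest. In castrate 1, where Rpl34 was also below Nkx intact, they were at their lowest. This arrangement was not particular to Rpl34. The 3 rows named as Rps7 pseudogenes were at 16.6 and 13.4 CPM in Nkx intact, 15.2 and 91.4 in castrate, and 59.7 and 45.3 in Clu. Rps7 itself differed from the family by -0.13 in Clu against Nkx intact and 0.004 in Clu against castrate. The part of pseudogene rows in the level of Rpl34 was not tested.

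Rpl21, a large-subunit protein, was at 779 and 746 CPM in Nkx intact, 939 and 965 in castrate, and 294 and 358 in Clu. Here the castrate libraries lay close to each other and stood above Nkx intact, and Clu was lowest. The log2 fold change of Clu was -1.22 ± 0.18 against Nkx intact (edgeR's adjusted p = 0.00514) and -1.55 ± 0.18 against castrate (edgeR's adjusted p = 0.00163). The second was called in every leave-one-out fit and the first was not without Nkx intact 1, Nkx intact 2 or Clu 1, at adjusted p from 0.0572 to 0.0668. Relative to the family the differences were -0.94 ± 0.20 (edgeR's adjusted p = 0.0355) and -0.997 ± 0.204 (edgeR's adjusted p = 0.0153), and these calls were lost in 4 and 3 of the 6 leave-one-out fits. Its 15 pseudogene rows moved with it, at 25.3 and 26.6, 25.9 and 29.3, and 6.16 and 12.9 CPM. Rps28 of the small subunit, at 600 and 572, 537 and 733, and 327 and 367 CPM, was lower in Clu than in Nkx intact by 0.76 ± 0.20 on the log2 scale (edgeR's adjusted p = 0.0497), a call lost without any of the Nkx intact or Clu libraries.

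Rplp1, the stalk protein, had values that ran opposite to most members in Clu. It was at 1033 and 1014 CPM in Nkx intact, 937 and 2867 in castrate, and 1874 and 2076 in Clu. Castrate 2 was highest, both Clu libraries were above Nkx intact, and castrate 1 was lowest. The log2 fold change of Clu against Nkx intact was 0.95, and relative to the family 1.23 (edgeR's adjusted p = 0.0656). The adjusted p of the latter was 0.00479 with DESeq2, 6.7e-07 with no filter on low counts, 0.000142 in a fit on the 2 groups, 4.5e-05 and 0.000323 without castrate 1 and 2, and 0.0421 with the replicate number as a block. It was 0.219 to 0.325 in edgeR without any one of the Nkx intact or Clu libraries, with the size between 1.21 and 1.25. In Clu against castrate it was 0.74 relative to the family (edgeR's adjusted p = 0.136), 0.30 without castrate 1 and 1.39 without castrate 2 (adjusted p = 0.0998 and 0.00078). Between castrate 1 and 2 Rplp1 differed more than the family did, and castrate 2 lay on the side of Clu, as it did for Rpl29 and Rpl34.

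Rps4l, a paralog of the X-linked Rps4x, was the only member called higher in these edgeR fits. It was at 12.1 and 9.28 CPM in Nkx intact, 11.4 and 3.55 in castrate, and 31.9 and 24.5 in Clu. Clu was highest and castrate 2 lowest. The log2 fold change of Clu against castrate was 1.90 ± 0.52 (SE; edgeR's adjusted p = 0.042), and 2.34 ± 0.67 relative to the family (edgeR's adjusted p = 0.0447), where 22.7% of all genes were called higher on that scale. Both calls were lost in 4 of the 6 leave-one-out fits, and the fold change was 2.99 without castrate 1 and 1.31 without castrate 2. Rps4x itself was at 537 and 558, 612 and 911, and 481 and 564 CPM and moved with the family.

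**Figure D4:**
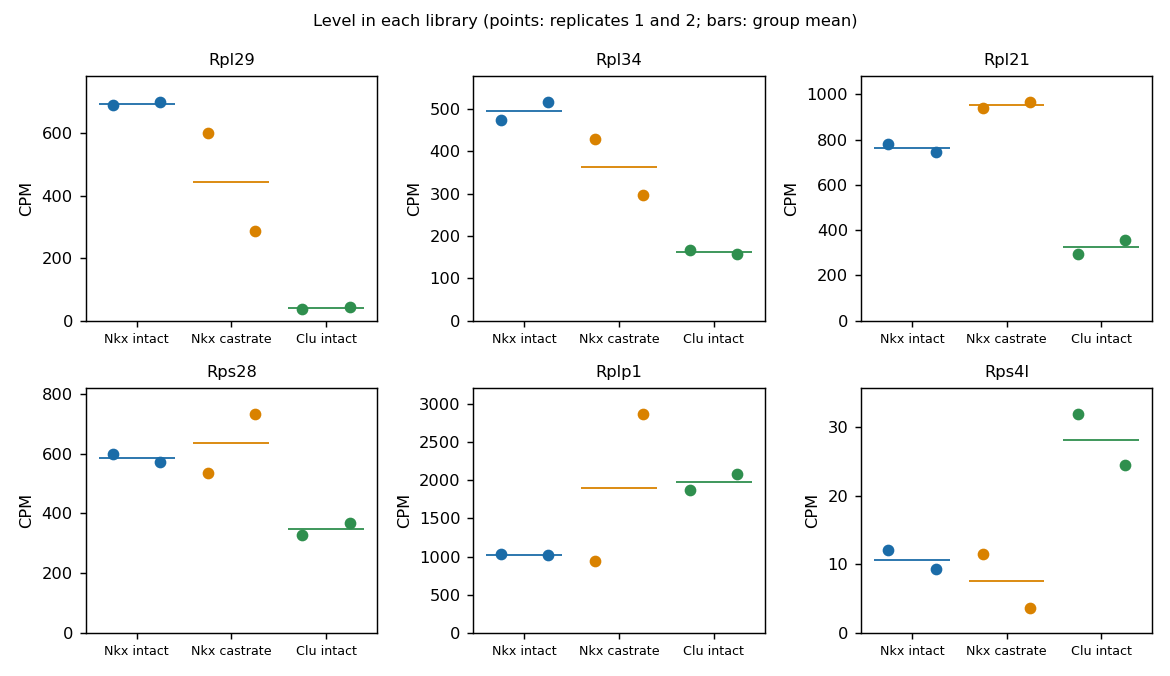
CPM (TMM-scaled, linear axes from 0) of 6 ribosomal protein genes in each library, with points for replicates 1 and 2 and bars for group means. Rpl29 falls from 689 and 700 CPM in Nkx intact to 36.9 and 44.8 in Clu, and in Rpl29, Rpl34, Rplp1 and Rps4l the castrate points lie apart.

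Of the other paralogs, Rpl22l1, the paralog of Rpl22, was at 31.6 and 36.3 CPM in Nkx intact, 28.0 and 26.4 in castrate, and 18.6 and 22.4 in Clu. It was highest in Nkx intact and was not called in any comparison (log2 fold change of Clu against Nkx intact -0.73, edgeR's adjusted p = 0.0891), while Rpl22 was at 392 to 640 CPM. Rps27l, a target of p53 and paralog of Rps27, stayed at 24.6 to 37.2 CPM with overlapping groups. Rpl7l1 was at 68.3 and 78.2, 64.1 and 94.9, and 62.0 and 70.9 CPM, also with overlap.

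**Figure D5:**
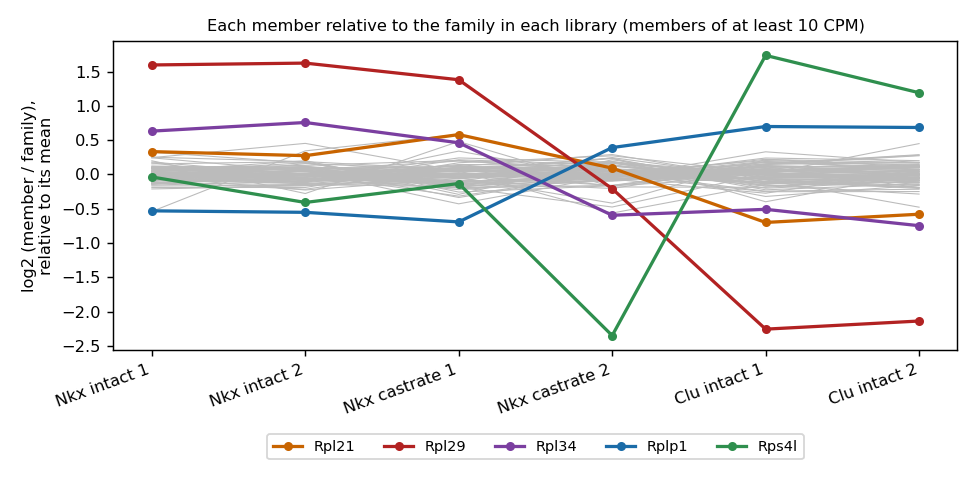
Log2 level of each ribosomal protein gene of at least 10 CPM relative to the family in each library, centred on the gene's own mean over libraries; gray lines are members without a name. The gray lines stay close to 0, Rpl29 drops to about -2 in both Clu libraries, and castrate 2 lies nearer to Clu than castrate 1 does for Rpl29, Rpl34 and Rplp1.

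In castrate against Nkx intact no member departed from the family (edgeR called 0 higher and 0 lower relative to it, where 1.68% and 5.21% of all genes were called, and 1 and 0 at an unadjusted p of 0.05, against 5.64% and 17.6%). Among members of at least 10 CPM the furthest were Rpl29 at -0.82, Rpl34 at -0.67, Rps4l at -0.64, Rpl22l1 at -0.58 and Rplp1 at 0.49. Without castrate 1 the differences of Rpl29, Rpl34 and Rps4l grew to -1.82, -1.29 and -2.14 and 4 members were called lower and 2 higher (3272 and 409 of 14326 genes); without castrate 2 the first 2 were -0.23 and -0.23 and none was called.

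Outside the symbol rule, Fau, which encodes a small-subunit protein fused to a ubiquitin-like protein, was at 574 and 616 CPM in Nkx intact, 573 and 802 in castrate, and 445 and 452 in Clu. Rack1, a scaffold bound to the small subunit, was at 780 and 812, 777 and 1286, and 697 and 766 CPM. Both followed the order of the family in their group means, but in castrate 1 both lay below the Nkx intact pair, unlike the family's sum. Rpl36al was at 1.5 to 4.3 CPM.

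Genes that build ribosomes gave most of their calls in Clu against castrate. These nucleolar factors process ribosomal RNA and load it with the proteins above. Of 57 biogenesis genes tested, 3 rose in castrate against Nkx intact and none fell, with a median of 0.48. That is near the 4.02% of all genes called higher. At an unadjusted p of 0.05, 21 were higher and 0 lower, against 11.9% and 11.6% of all genes. The 3 were Nop2, a ribosomal RNA methyltransferase (26.3 and 23.0 CPM in Nkx intact, 55.1 and 47.7 in castrate), Gnl3, the nucleolar GTPase nucleostemin (51.2 and 61.9, 102 and 101), and Tcof1, a factor of ribosomal DNA transcription (51.5 and 59.1, 89.3 and 98.1). These 3 were at about the same level in castrate 1 and 2, but a call favours genes whose libraries agree. The whole list summed to 4700 CPM in castrate 1 and 5839 CPM in castrate 2. In Clu against castrate 15 biogenesis genes fell and 0 rose (edgeR; 8.1% and 8.82% of all genes), with a median of -0.56. At an unadjusted p of 0.05, 28 were lower and 0 higher, against 16.4% and 16.1% of all genes. Gnl3 was at 38.6 and 35.7 CPM in Clu, a log2 fold change of -1.45 ± 0.19 (edgeR's adjusted p = 0.00267). Npm1, nucleophosmin, was at 367 and 373 CPM in Nkx intact, 450 and 682 in castrate and 246 and 270 in Clu (-1.13 ± 0.22 against castrate, edgeR's adjusted p = 0.0121). Rrs1 and Rrp1b, both assembly factors, fell by 1.26 and 1.20 on the log2 scale. In Clu against Nkx intact 1 fell, Nolc1, a nucleolar phosphoprotein, at 175 and 200 CPM against 108 and 117 (-0.73, edgeR's adjusted p = 0.0322), where 5% of all genes were called lower, and the median was -0.19. Both the 15 and the 3 fell without any one of the Nkx intact or Clu libraries and rose without either castrate library. The calls over all genes in the same comparison and direction fell and rose likewise.

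Myc, the transcription factor known to drive ribosomal genes, was at 198 and 199 CPM in Nkx intact, 250 and 309 in castrate, and 107 and 86.2 in Clu. The groups did not overlap, and Clu was lower than Nkx intact by 1.04 ± 0.19 (edgeR's adjusted p = 0.0132) and lower than castrate by 1.53 ± 0.19 on the log2 scale (edgeR's adjusted p = 0.00223). Of 11 genes of the MYC network tested, 1 fell in castrate against Nkx intact, where 4.59% of all genes did. It was Mxd4, a repressor that competes with Myc for its partner Max, at 190 and 142 CPM in Nkx intact, 55.7 and 41.0 in castrate, and 137 and 138 in Clu. In Clu against Nkx intact 2 fell, Myc and Mxi1 (5% of all genes), and in Clu against castrate 1 rose, Mxd4, and 3 fell, Myc, Mycl and Zbtb17 (8.82% and 8.1% of all genes).

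Other messengers that start with a TOP tract include those of elongation factors. Of 25 such genes, 0 rose and 0 fell in castrate against Nkx intact, 0 and 2 in Clu against Nkx intact and 0 and 4 in Clu against castrate (edgeR; over all genes 4.02% and 4.59%, 6.29% and 5%, and 8.82% and 8.1%), with medians of 0.22, -0.17 and -0.40. At an unadjusted p of 0.05 the counts higher and lower were 4 and 0, 1 and 5, and 0 and 10, where all genes had 11.9% and 11.6%, 13.7% and 12.6%, and 16.1% and 16.4%. Gas5, a noncoding host of small nucleolar RNAs, was at 157 and 173 CPM in Nkx intact, 207 and 202 in castrate, and 67.3 and 75.5 in Clu (-1.52 ± 0.16 against castrate, edgeR's adjusted p = 0.00121). Snhg12, another such host, fell in both Clu comparisons, and Naca and Hnrnpa1 fell against castrate. Of 28 genes of mTORC1 signalling, 1 was lower in castrate against Nkx intact, 3 were lower in Clu against Nkx intact and 1 was higher in Clu against castrate, where 4.59%, 5% and 8.82% of all genes were. Sesn1, a stress-induced inhibitor, fell in castrate and in Clu against Nkx intact; Rheb, which activates the kinase, and Ddit4, which inhibits it, fell in Clu against Nkx intact; and Eif4ebp2, a translational repressor under its control, rose in Clu against castrate.

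The mitochondrial ribosome has its own set of proteins, encoded by other genes. Of 76 tested, 1 was higher and 2 lower in castrate against Nkx intact, 0 and 1 in Clu against Nkx intact and 0 and 1 in Clu against castrate (over all genes 4.02% and 4.59%, 6.29% and 5%, and 8.82% and 8.1%), with medians of -0.13, 0.08 and 0.15. Proteasome subunits, 37 tested, had medians of -0.18, 0.07 and 0.33. Of 10 genes of the ribosomal stress response, Ccng1, a p53 target, was at 109 and 117 CPM in Nkx intact, 36.6 and 52.9 in castrate, and 113 and 120 in Clu. It was the 1 gene of the list that fell in castrate (4.59% of all genes). Clu against castrate had 1 higher, Ccng1, and 3 lower, Trp53, Cdkn1a and Mdm4 (8.82% and 8.1% of all genes). Mdm2 was lower in Clu than in Nkx intact by 0.80 on the log2 scale (edgeR's adjusted p = 0.0245). Endothelial markers, which moved with the Clu group, had a fold change above 0 in 12 of 12 genes against Nkx intact, 6 of them called, where 6.29% of all genes were called higher. Of 8 basal cell markers, 4 were called lower in Clu than in Nkx intact, where 5% of all genes were. The sum of the 8 was 3620 and 3762 CPM in Nkx intact, 3323 and 2090 in castrate 1 and 2, and 2148 and 2459 in Clu. Castrate 2 thus lay beside Clu, as it lay nearer to Clu than castrate 1 did for Rpl29 and Rpl34. The part of endothelial and basal cells in the ribosomal protein levels was not tested.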

How the data were processed

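The deposited table held raw counts of reads per gene for the 6 libraries; the submitters' processing notes name FastQC 0.11.9, STAR 2.7.9a, Subread 2.0.1, featureCounts and the build GRCm39. In R 4.3.3, genes were filtered with filterByExpr over the 3 groups, which left 13846, and counts were tested with edgeR 4.0.16 (TMM factors, glmQLFit and glmQLFTest, two-sided, all 6 libraries, 1 mean per group, 3 residual degrees of freedom), with Benjamini-Hochberg adjustment over all genes tested. Departure from the family was tested in the same fit with libraries scaled by the median ratio of the 80 members at or above 10 CPM. Lengths were exon unions of GENCODE M21. Alternatives were DESeq2 1.42.0, limma-voom (limma 3.58.1), other scaling factors and filters, fits on 2 groups, a replicate block, and each library left out. The fits were tested on simulated data.

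The members, lists and tests were chosen with earlier results of these data known. Named by rule were the 10 largest calls in each direction and comparison, called departures or, with fewer than 5, the 5 largest among members of at least 10 CPM, the paralogs, genes outside the symbol rule, the 3 most abundant per kilobase of each subunit, and up to 4 called genes of each list. Results of some genes that this rule names are not reported here. Other genes named were chosen after their values were seen. Lists for initiation factors, RNA polymerase I and ribosomal protein chaperones gave 0, 1 and 1 lower, 0, 1 and 1 lower, and 0, 0 and 1 lower in the 3 comparisons, and none higher (edgeR).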

Additional observations from a re-analysis of the deposited data

How the results depend on the processing

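With 2 libraries a group and 3 residual degrees of freedom, counts of calls moved with the processing more than sizes did, and the cause was not tested. In castrate against Nkx intact, no filter on low counts gave 2 higher, 1 lower and 2 departing lower (1197, 1103 and 1483 of all 19899 genes). DESeq2 gave 2 higher (973 of 14883). In Clu against Nkx intact, no filter gave 2 higher, 7 lower and 2 departing higher (1467, 1198 and 1908 of all 19899 genes). DESeq2 gave 7 lower (1092 of 14883) and 1 departing higher (1820 of 14498). A fit on the 2 groups alone gave 2 higher, 20 lower, 3 departing higher and 5 departing lower (1761, 1548, 2760 and 834 of 13170). In Clu against castrate, upper quartile factors gave 0 higher and 31 lower (1191 and 1309 of all 13846 genes), and library totals 0 higher (1442 of 13846). No filter gave 41 lower and 2 departing higher (1736 and 3843 of 19899). DESeq2 gave 44 lower (1685 of 14112). The 2 groups alone gave 0 higher, 4 lower, 0 departing higher and 1 departing lower (850, 766, 1759 and 177 of 13570). Summed CPM in Nkx intact was 45128 with library totals and 50880 without ribosomal RNA and mitochondrial genes, and in Clu 44119 without them.

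Correlations of replicate differences between same-numbered libraries were 0.07, 0.03 and 0.19. They cannot show whether the numbers pair libraries, and the labels do not say so. With the replicate number as a block, 0 members were higher and 0 lower in castrate against Nkx intact (711 and 800 of all 13846 genes). In Clu against Nkx intact 0 were higher, 5 lower and 1 departing higher (1081, 883 and 1242 of 13846). In Clu against castrate 1 was higher and 31 lower (1469 and 1310 of 13846).

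Leaving out each library gave, in castrate against Nkx intact, 0 to 51 higher, 0 to 3 lower, medians of 0.0177 to 0.56, and 0 to 2 departing higher and 0 to 4 lower. In Clu against Nkx intact it gave 0 to 2 higher, 2 to 21 lower, medians of -0.36 to -0.21, and 0 to 4 departing in each direction. In Clu against castrate it gave 0 to 2 higher, 2 to 72 lower, medians of -0.84 to -0.31, and 0 to 4 departing higher and 1 to 3 lower. Calls over all genes moved over these fits as well. Where an arm keeps 1 library, that library is assumed to vary like the others. Without castrate 2, castrate against Nkx intact reversed for Rps4l (0.0947, and 0.0791 relative to the family) and Rplp1 (-0.13, and -0.15 relative to the family), where without castrate 1 they were -1.58 and -2.14, and 1.49 and 0.93. For biogenesis genes these fits were added after seeing the data, and their counts of calls also moved widely.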
